A study of Mus musculus with 6 samples.

Results

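The annexin family in the mouse pancreas was described here by 10 genes given by name, Anxa1, Anxa2, Anxa3, Anxa4, Anxa5, Anxa6, Anxa7, Anxa8, Anxa10 and Anxa11, of the 22556 genes listed in every RNA-sequencing table. All 6 libraries came from whole pancreas of wild-type C57BL/6 mice aged 8 weeks, with 2 mice in each of 3 groups. Saline mice received no caerulein. AP mice received saline and then caerulein, a cholecystokinin analogue that over-stimulates acinar cells, as 10 hourly intraperitoneal injections of 200 μg/kg. PolyI:C-pretreated AP mice received polyI:C, a synthetic double-stranded RNA that is sensed by TLR3, at 10 mg/kg before the same caerulein course, and pancreases were taken at 24 h after the first caerulein injection. No group received polyI:C alone, so every comparison with polyI:C was made in caerulein-treated tissue. The question put to the data was how annexin transcripts differed between uninjured and inflamed pancreas, and whether polyI:C pretreatment shifted them.

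Annexins are cytosolic proteins that bind negatively charged membrane lipids, mostly phosphatidylserine and phosphoinositides, when calcium rises. They take part in granule exocytosis, endosome traffic, resealing of torn plasma membrane and the surface display of plasminogen, and several pair with small S100 proteins. In the exocrine pancreas, where enzyme release is driven by calcium, annexins have been described on zymogen granules, in duct epithelium and in infiltrating leukocytes.

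All 10 genes are protein-coding. On GRCm38, with GENCODE M21 gene models, Anxa1 (ENSMUSG00000024659) lies at chr19:20373428-20390944 on the minus strand, Anxa2 (ENSMUSG00000032231) at chr9:69453620-69491795 on the plus strand and Anxa3 (ENSMUSG00000029484) at chr5:96793339-96845966 on the plus strand. Anxa4 (ENSMUSG00000029994) lies at chr6:86736840-86793584 on the minus strand, Anxa5 (ENSMUSG00000027712) at chr3:36448923-36475894 on the minus strand and Anxa6 (ENSMUSG00000018340) at chr11:54979108-55033445 on the minus strand. Chromosome 14 carries Anxa7 (ENSMUSG00000021814) at chr14:20455260-20480133 on the minus strand, Anxa8 (ENSMUSG00000021950) at chr14:34085981-34100571 on the plus strand and Anxa11 (ENSMUSG00000021866) at chr14:25842156-25886804 on the plus strand. Anxa10 (ENSMUSG00000031635) lies at chr8:62057042-62123150 on the minus strand. Of the 100-base stretches of Anxa11 exons, 13.2% also occur in the pseudogenes Gm2260 and Gm2274, so the level of Anxa11 is uncertain by the reads these copies may share. Exons of Anxa2, Anxa4 and Anxa11 also share 98, 75 and 113 bases with antisense genes and those of Anxa3 share 112 bases with Gm42603 on the same strand, and whether the counting used strand is not given in the sources used here.

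The sequence before the RefSeq starts differed between members. RefSeq windows of GRCm38.p6 were at hand for 8 of the 10 members, in 10 windows, with no entry for Anxa3 and Anxa6. The 250 bases before each RefSeq start were searched on both strands for 7 short motifs: AP-1 as TGANTCA, TEAD as GGAATG, STAT as TTCNNNGAA, Sp1 as GGGCGG, the CCAAT box, the TATA box as TATAAA and the NF-kB consensus. The Anxa1 window and that of the Anxa4 start at 86775114 lay wholly inside the GENCODE gene. Those of Anxa2, of Anxa5 and of the Anxa7 start at 20479941 lay partly inside it. The sequences below belong to Anxa2 and Anxa10, the members with the largest log2 fold change in AP against saline mice, and, for contrast, to Anxa5, a member with no match. They are written 5′ to 3′ on the strand of the gene and stop at the RefSeq or the GENCODE start, whichever came first, with every motif match in capitals.
Anxa2: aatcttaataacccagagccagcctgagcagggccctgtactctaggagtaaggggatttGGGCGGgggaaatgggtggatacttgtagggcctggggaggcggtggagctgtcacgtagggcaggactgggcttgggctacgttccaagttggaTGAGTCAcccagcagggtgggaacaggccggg
Anxa10: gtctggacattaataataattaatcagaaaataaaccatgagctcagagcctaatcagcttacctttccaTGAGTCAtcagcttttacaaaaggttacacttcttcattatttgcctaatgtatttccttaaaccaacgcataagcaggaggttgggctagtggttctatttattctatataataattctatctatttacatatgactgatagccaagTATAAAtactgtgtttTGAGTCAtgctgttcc
Anxa5: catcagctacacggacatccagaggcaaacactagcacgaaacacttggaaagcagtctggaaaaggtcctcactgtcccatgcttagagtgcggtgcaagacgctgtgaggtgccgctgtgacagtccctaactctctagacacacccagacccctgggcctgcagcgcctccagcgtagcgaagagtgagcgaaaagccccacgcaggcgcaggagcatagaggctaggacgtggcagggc

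The Anxa2 stretch is chr9:69453433-69453619, and the bases between it and the RefSeq start at 69453683 lie inside the GENCODE gene and are not shown. Its capitals mark Sp1 letters and, from 95 to 89 bases upstream of that start, the AP-1 letters TGAGTCA. The Anxa10 stretch, chr8:62123194-62123443 read on the minus strand, held TGAGTCA at 180 and again at 16 bases upstream, with TATAAA at 32 bases upstream. AP-1 letters occurred in these 2 of the 10 annexin windows and in 6.75% of all 32851 mouse windows of the same length. The Anxa10 window was also the poorest in GC, at 33.6%, against 62.4% in the Anxa2 window and a median of 52.4% over all windows. The Anxa5 stretch, chr3:36475895-36476137 read on the minus strand, held none of the 7. The NF-kB consensus was found for Anxa4, 55 bases upstream of its RefSeq start, and in 0.14% of all windows. TATAAA was found for Anxa1, Anxa2 and Anxa10 (12.4% of all windows), GGGCGG in 4 windows of Anxa2, Anxa7 and Anxa11 (32.7%) and GGAATG for Anxa1 (12.6%). TTCNNNGAA and CCAAT were found in none of the 10 windows (7.02% and 33.8% of all windows). No match overlapped one of another motif. A match describes letters in a window, not a bound site.

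The tables hold TPM, transcript abundances scaled for gene length and library total, so levels may be set beside each other between genes. The spacing of low values put the reads on the listed genes at an estimated 3279326 and 3962441 in saline mice, 6903978 and 8915376 in AP mice and 8881877 and 10875045 with polyI:C pretreatment. Low annexins were thus counted least precisely in saline mice. Reads on genes not listed, such as the acinar markers missing from the 22556 genes, are not in these figures, so they do not give the size of the whole libraries. Tests covered the 16814 genes that averaged 1 TPM or more, and all 10 annexins passed this filter. A gene was called when limma on log2(TPM + 0.5) put its Benjamini-Hochberg adjusted p at 0.05 or below and its change at 2-fold or more. Fold changes on this log2 scale understate the change of low genes. The 7 acinar markers listed, of 20, summed to between 24100 and 141000 TPM, so the labelled tissue was seen in every mouse. With 2 mice a group, an exact two-sided permutation test cannot go below p = 0.333, so the spread behind each p was shared over all 6 mice.

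Summed over the 10 genes, annexin transcripts came to 555 and 532 TPM under saline, 1630 and 1790 TPM under caerulein alone and 1510 and 1370 TPM under polyI:C with caerulein. Both caerulein groups lay above saline in each mouse, and the polyI:C-pretreated mice lay below the AP mice. The make-up of this sum differed as well. In saline mice Anxa6 held 28.1% of the summed annexin TPM and Anxa2 5.05%, whereas in AP mice Anxa2 held 23.0% and Anxa6 11.5%. In polyI:C-pretreated AP mice these shares were 25.7% and 8.76%. Anxa5 and Anxa7 each kept between 20% and 22.9% of the group mean in all 3 groups, and Anxa10 went from 0.053% in saline to 3.24% in AP and 2.19% in polyI:C-pretreated AP mice. In bulk tissue, fewer cells of a type and less RNA per cell cannot be told apart.

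**Figure D1:**
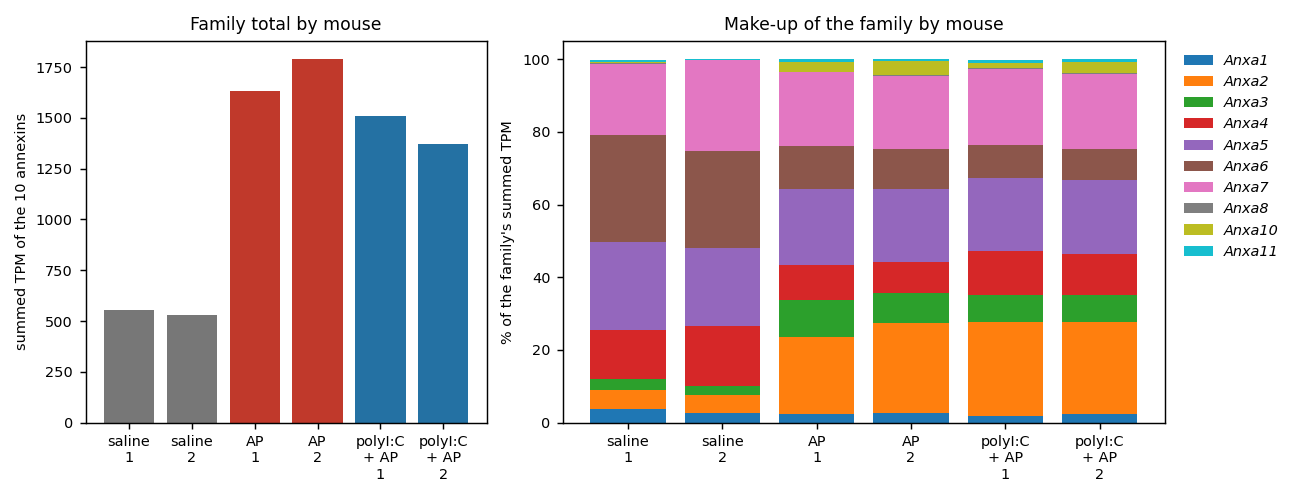
Left, the summed TPM of the 10 annexins in each of the 6 mice (bars from 0); right, the percentage of that sum held by each annexin in the same mice. The sum was 532 to 555 TPM in saline mice and 1370 to 1790 TPM in the caerulein-treated mice, and the Anxa2 segment went from 4.87% and 5.24% in saline mice to 21.3% or more in the other mice.

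Anxa2 binds S100a10 and presents plasminogen and its activator at the cell surface. Its level was 29.1 and 25.9 TPM in saline mice, 346 and 442 TPM in AP mice and 394 and 347 TPM after polyI:C and caerulein. The caerulein-treated mice of both kinds stood far above saline and overlapped each other. In AP against saline mice Anxa2 rose 14.3-fold (27.5 ± 2.25 to 394 ± 67.9 TPM, mean ± SD, n = 2), a log2 fold change of 3.81 ± 0.14 (SE) with adjusted p = 2.4e-05. Among the annexins of the set, Anxa2 thereby moved from rank 5 by mean TPM in saline mice to the highest mean in both caerulein groups. Anxa13, which is outside the set, also lay above Anxa2 in saline mice, at 66.6 and 70 TPM.

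Anxa1 is a glucocorticoid-induced protein that restrains phospholipase A2 and signals through formyl peptide receptors to curb neutrophil traffic. It measured 21.4 and 13.9 TPM in saline mice, 38.7 and 47.4 TPM in AP mice and 27.0 and 32.0 TPM after polyI:C and caerulein, so the 3 groups did not overlap and the polyI:C-pretreated mice were in between. Anxa1 rose in AP against saline mice by 1.29 ± 0.23 on the log2 scale (adjusted p = 0.0052, 2.44-fold). This call rested on single mice, since the log2 fold change was 0.98, under 2-fold, without saline replicate 2 and 1.14 with adjusted p = 0.08 without AP replicate 2.

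Anxa3 is abundant in neutrophils and is also made by epithelia. It measured 16.5 and 13.7 TPM in saline mice, 163 and 149 TPM in AP mice and 110 and 101 TPM after polyI:C and caerulein. Both mice of each group lay close together and no groups overlapped. Anxa3 rose 10.3-fold in AP against saline mice (log2 fold change 3.33 ± 0.12, adjusted p = 2.4e-05). The summed neutrophil markers, 6 of 8 listed, ranged over 5.15 to 16.6 TPM under saline and 57.9 to 68.2 TPM under caerulein alone. After polyI:C and caerulein they ranged over 20.1 to 41.8 TPM. The largest drop in mean between the caerulein groups was that of Retnlg, from 31.7 to 4.51 TPM. Csf3r went from 3.3 to 1.37 TPM, S100a9 from 19.4 to 14.7 TPM and S100a8 from 7.79 to 8.9 TPM. The groups overlapped for S100a8 and S100a9, and 0 of the 4 markers tested were called between the caerulein groups. In AP against saline mice 2 of the 4 tested were higher, beside 18.2% of all tested genes, and Elane was at 0 in both groups. The part of neutrophils in the Anxa3 level was not tested.

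Anxa5 binds exposed phosphatidylserine and is the protein used to stain dying cells. It measured 135 and 114 TPM in saline mice, 343 and 360 TPM in AP mice and 303 and 281 TPM after polyI:C and caerulein. The groups did not overlap, with the AP mice highest. The rise in AP against saline mice was 2.82-fold (log2 fold change 1.5 ± 0.11, adjusted p = 0.00019).

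Anxa6, the annexin with the longest core, works at endosomes and in membrane repair. It was the most abundant annexin of the saline pancreas, at 164 and 142 TPM, with 195 and 197 TPM in AP mice and 139 and 114 TPM after polyI:C and caerulein. Anxa6 was the one member whose polyI:C-pretreated mice both lay below both saline mice. The difference between AP and saline mice, 0.36 on the log2 scale with a 95% interval of 0.05 to 0.67, did not pass (adjusted p = 0.064), and it was -0.07 once libraries were scaled to a common median gene.

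Anxa7, first known as synexin, promotes fusion of secretory granules. It measured 108 and 132 TPM in saline mice, 327 and 358 TPM in AP mice and 316 and 282 TPM after polyI:C and caerulein, and the groups did not overlap. In AP against saline mice it rose 2.84-fold (log2 fold change 1.51 ± 0.13, adjusted p = 0.00028). Anxa5 and Anxa7 ran at nearly the same level in every group, and their ranges overlapped in all 3.

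Anxa4 sits on secretory and apical membranes of epithelia such as the pancreatic duct. It measured 74.1 and 88.5 TPM in saline mice, 156 and 155 TPM in AP mice and 184 and 154 TPM after polyI:C and caerulein. Both AP mice lay above both saline mice, and the caerulein groups overlapped. The difference between AP and saline mice had adjusted p = 0.0017, but at 0.94 ± 0.13 on the log2 scale it stayed under 2-fold and was not called. Without saline replicate 2 it was 1.06 and passed.

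Anxa11 binds S100a6 and links RNA granules to lysosomes. It was scarce, with 4.05 and 1.30 TPM in saline mice, 13.6 and 9.22 TPM in AP mice and 13.4 and 11.4 TPM after polyI:C and caerulein. It rose in AP against saline mice by 2.03 ± 0.44 on the log2 scale (adjusted p = 0.01), a call that was lost without AP replicate 1 (1.76, adjusted p = 0.13) or AP replicate 2 (2.30, adjusted p = 0.077).

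Anxa10 is an epithelial annexin best known from the stomach lining, and its calcium-binding sites are degenerate. It was listed at 0.588 and 0 TPM in the saline mice, an estimated 2 and 0 reads, and at 43.9 and 67.9 TPM in AP mice and 22.9 and 39.2 TPM after polyI:C and caerulein. The gene was thus next to absent from the saline pancreas and, in both caerulein groups, outranked Anxa1 by mean although their ranges overlapped. The log2 fold change in AP against saline mice was 6.22 ± 0.43 (adjusted p = 0.00015), the largest among the 10 members. Anxa10 reached the filter of 1 TPM through its caerulein groups alone. From the summed estimated reads, 638 against 2, the ratio corrected for reads on the listed genes was 146, with an exact 95% interval of 40.3 to 1210 that covers counting error only.

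Anxa8, an annexin of stratified epithelia and late endosomes, was the lowest member in both caerulein groups. It measured 1.80 and 0.370 TPM in saline mice, 3.29 and 6.33 TPM in AP mice and 2.68 and 6.52 TPM after polyI:C and caerulein. The mice within each caerulein group differed more than the means of these groups did, and Anxa8 did not pass in AP against saline mice (log2 fold change 1.85, 95% interval 0.24 to 3.45, adjusted p = 0.069). That value was 2.55 without saline replicate 1 and 1.14 without saline replicate 2. Summed mesothelium markers, all 5 listed, were likewise higher in the second AP mouse (105 against 38.1 TPM) and the second polyI:C-pretreated mouse (74.2 against 37.0 TPM), with 47.8 and 49.7 TPM in saline mice. This order was not particular to mesothelium. Summed T cell markers, at low levels, were also higher in the second AP mouse (5.15 against 1.14 TPM) and the second polyI:C-pretreated mouse (3.75 against 1.87 TPM). The part of either cell type in the Anxa8 level was not tested.

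**Figure D2:**
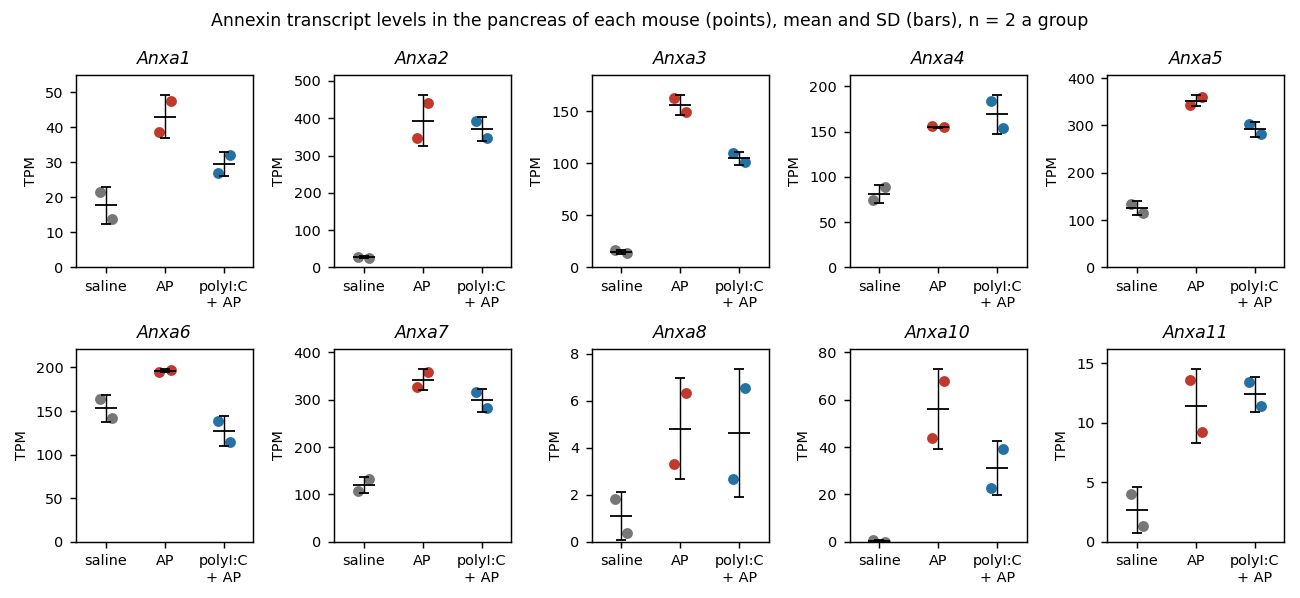
TPM of each annexin in every mouse (points) with the group mean and SD (bars, n = 2 a group); each panel has its own linear axis from 0. Anxa2, Anxa3 and Anxa10 show the widest gap between saline (at most 29.1, 16.5 and 0.588 TPM) and AP mice (at least 346, 149 and 43.9 TPM), and Anxa6 is lowest in polyI:C-pretreated mice.

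Ranked by mean TPM within the set, the saline order was Anxa6, Anxa5, Anxa7, Anxa4, Anxa2, Anxa1, Anxa3, Anxa11, Anxa8 and Anxa10. Neighbours whose ranges overlapped were Anxa5 and Anxa7, Anxa1 and Anxa3, and the low trio of Anxa11, Anxa8 and Anxa10. In AP mice the order became Anxa2, Anxa5, Anxa7, Anxa6, Anxa3, Anxa4, Anxa10, Anxa1, Anxa11 and Anxa8. There the ranges of Anxa2, Anxa5 and Anxa7 ran into each other, as did those of Anxa3 and Anxa4 and those of Anxa10 and Anxa1. In polyI:C-pretreated AP mice Anxa2 stood clear of the rest, Anxa7 and Anxa5 overlapped below it, and Anxa4, Anxa6 and Anxa3 followed in separate ranges. The ratio of Anxa2 to Anxa6 TPM, chosen after the values were seen, was 0.177 and 0.183 in saline mice, 1.78 and 2.25 in AP mice and 2.83 and 3.04 in polyI:C-pretreated AP mice.

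Of the 10 annexins, 7 rose in AP against saline mice (Anxa1, Anxa2, Anxa3, Anxa5, Anxa7, Anxa10 and Anxa11) and 0 fell, where 18.2% of all tested genes rose and 4.03% fell. Anxa10 reached the filter through its caerulein groups alone, so it could be tested only as a rise. The members were also chosen with earlier results of these data known, so the counts set beside all genes are a description. For all 10, both AP mice lay above both saline mice, which held for 52.6% of tested genes, whereas the reverse held for 16.4% of genes and 0 annexins. The median log2 fold change over the 10 members was 1.68, and that over all tested genes was 0.45. Relative to that all-gene median, the differences were 5.77 for Anxa10, 3.36 for Anxa2, 2.88 for Anxa3, 1.58 for Anxa11, 1.40 for Anxa8, 1.06 for Anxa7, 1.05 for Anxa5, 0.84 for Anxa1, 0.49 for Anxa4 and -0.09 for Anxa6. After median-of-ratios scaling between libraries, 6 of 10 annexins rose (Anxa1 lost its call, at 0.87) against 9.31% of tested genes, and the share of all calls that were higher went from 81.8% to 56.2%.

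The AP mice also served in the comparison with polyI:C-pretreated AP mice, and the saline mice in that of polyI:C-pretreated AP with saline, so the values of the 3 comparisons are not independent. Between polyI:C-pretreated AP and AP mice, 0 of the 10 annexins passed in limma, where 0.845% of tested genes did, 0.44% higher and 0.404% lower. That share rests on 142 genes, which became 0 without either AP mouse or without polyI:C-pretreated replicate 2, 53 without polyI:C-pretreated replicate 1, 28 or 41 under other prior variances and 324 with voom. At an unadjusted p of at most 0.05 there were 2, Anxa3 and Anxa6, against 13.9% of tested genes. Voom on the estimated reads also put 0 past both thresholds.

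For 6 annexins (Anxa1, Anxa3, Anxa5, Anxa6, Anxa7 and Anxa10) both polyI:C-pretreated mice lay below both AP mice, which held for 22.1% of tested genes, and for 0 annexins both lay above, as in 27.7%. Anxa6 differed by -0.63 on the log2 scale (95% interval -0.94 to -0.33, adjusted p = 0.08) and Anxa3 by -0.57 (-0.86 to -0.27, adjusted p = 0.093). For these the voom adjusted p was 0.023 and 0.019, and over all alternatives adjusted p ran up to 0.5 for Anxa6 and 0.51 for Anxa3. Anxa10 differed by -0.85, with a wide interval of -1.89 to 0.18 and values from -1.23 (without polyI:C-pretreated replicate 2) to -0.47 (without polyI:C-pretreated replicate 1) when 1 mouse was left out. Without AP replicate 1 the Anxa10 value was -1.16 and without AP replicate 2 it was -0.54. Anxa1 differed by -0.53 (-1.09 to 0.02).

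Several members were bounded within 2-fold. Anxa5 differed by -0.27 (95% interval -0.54 to 0.00) and Anxa7 by -0.20 (-0.49 to 0.10). Anxa2 differed by -0.08 (-0.42 to 0.26) and Anxa4 by 0.12 (-0.19 to 0.43), both with overlapping groups. The intervals of Anxa8 (-1.71 to 1.5) and Anxa11 (-0.91 to 1.18) were wider. Changes of more than 2-fold in either direction lay within that of Anxa8. A rise of more than 2-fold and a fall of close to 2-fold lay within that of Anxa11. The median over the 10 members was -0.23, and over all tested genes 0.04.

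Set against saline, polyI:C-pretreated AP mice had 7 of 10 annexins higher and 0 lower, where 16.9% of tested genes rose and 2.97% fell. The limits given above, on Anxa10 and on how the members were chosen, hold for this count too. The 7 were Anxa2 (log2 fold change 3.73 ± 0.14, adjusted p = 2.6e-05), Anxa3, Anxa4, Anxa5, Anxa7, Anxa10 and Anxa11. Anxa3 differed by 2.76 and Anxa10 by 5.37, beside 3.33 and 6.22 in AP against saline mice. Anxa4 passed here, at 1.05, and Anxa1 did not, at 0.75 with adjusted p = 0.042. Both sides of the 2-fold line rested on single mice, and without saline replicate 1 the pair traded places (0.93 for Anxa4 and 1.06 for Anxa1). Anxa4 was also at 0.93 without polyI:C-pretreated replicate 1. The Anxa11 call, at 2.17, was lost without polyI:C-pretreated replicate 1 (2.05, adjusted p = 0.11) or replicate 2 (2.28, adjusted p = 0.076).

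For 9 annexins both polyI:C-pretreated AP mice lay above both saline mice, as in 54.4% of tested genes, and Anxa6 was the exception. Anxa6 differed by -0.27 from saline in polyI:C-pretreated AP mice (95% interval -0.58 to 0.03, adjusted p = 0.14), with both of these mice below both saline mice, as in 14% of tested genes. Leaving out 1 mouse moved this from -0.42 (without polyI:C-pretreated replicate 1) to -0.13 (without polyI:C-pretreated replicate 2), with -0.17 without saline replicate 1 and -0.38 without saline replicate 2. The all-gene median in that comparison was 0.48 and the member median 1.53. After median-of-ratios scaling 4 annexins rose (Anxa2, Anxa3, Anxa10 and Anxa11) against 7.88% of tested genes, Anxa6 stood at -0.73 with adjusted p = 0.0053, under 2-fold, and the share of all calls that were higher went from 85% to 57.4%.

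**Figure D3:**
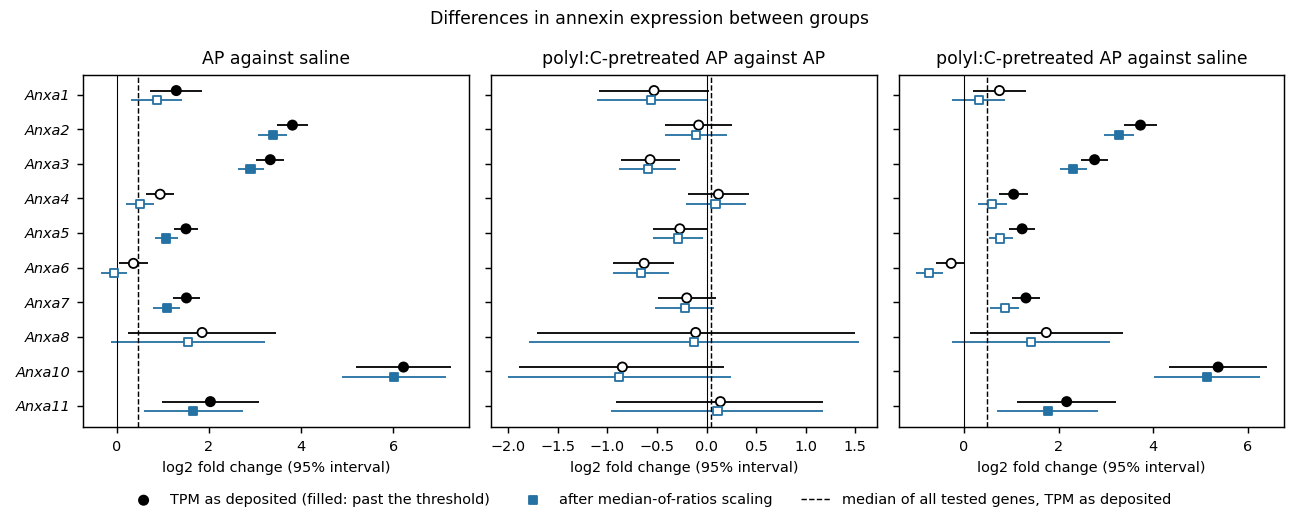
Log2 fold change of each annexin with its 95% interval in the 3 comparisons, from TPM as deposited (circles) and after median-of-ratios scaling (squares); filled symbols passed both thresholds and the dashed line is the median of all tested genes. Anxa10, Anxa2 and Anxa3 lie furthest to the right against saline (6.22, 3.81 and 3.33 in AP mice), and no symbol is filled in the middle panel.

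Among genes that work with annexins, 9 of the 10 S100 and other binding partners were listed and 5 rose in AP against saline mice with 0 lower, beside 18.2% and 4.03% of all tested genes. Pdcd6, a calcium sensor that binds Anxa7 and Anxa11, averaged 152 TPM under saline, 421 TPM under caerulein alone and 440 TPM under polyI:C with caerulein (log2 fold change 1.49 in AP against saline mice, adjusted p = 0.00094). S100a11, a partner of Anxa1, had 6.19, 281 and 218 TPM (5.83, adjusted p = 0.00089), and S100a10, the partner of Anxa2, had 34.3, 209 and 166 TPM (2.59, adjusted p = 3e-04). The saline mean of S100a11 rested on 10.7 and 1.65 TPM, an estimated 8 and 1 reads, so the size of its rise is imprecise. Ahnak, a scaffold bound by the pair of Anxa2 and S100a10, was not called (0.88). The other members called were S100a6 and Sri, named after their values were seen. The ratio of Anxa2 to S100a10 TPM was 0.765 and 0.845 in saline mice, 1.91 and 1.86 in AP mice and 2.89 and 1.77 in polyI:C-pretreated AP mice, so Anxa2 was the scarcer of the pair in saline mice alone. Of the partners 0 passed between polyI:C-pretreated AP and AP mice, where 0.845% of all tested genes did. After polyI:C and caerulein 5 were higher than saline, beside 16.9% of all tested genes.

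Plasminogen activation, which Anxa2 supports at the cell surface, had 5 of 6 genes listed, and all 5 rose in AP against saline mice, beside 18.2% of all tested genes. Plau, the urokinase activator, measured 44.1 and 41.3 TPM in saline mice, 135 and 124 TPM in AP mice and 51.6 and 38.2 TPM after polyI:C and caerulein. It was the one gene of the list to pass between polyI:C-pretreated AP and AP mice, where it fell by 1.53 on the log2 scale (adjusted p = 0.016) while Anxa2 differed by -0.08. Of all tested genes 0.404% were called lower in that comparison. Plat, the tissue activator, had 4.99, 43.8 and 20.7 TPM in the same order of groups (log2 fold change 3 in AP against saline mice), Plgrkt, a plasminogen receptor, 6.22, 19.4 and 26.9 TPM (1.57) and Plaur, the urokinase receptor, 1.69, 9.97 and 3.84 TPM (2.28). Against saline, 2 genes of the list were higher in polyI:C-pretreated AP mice, Plat and Plgrkt, beside 16.9% of all tested genes.

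Of the formyl peptide receptors and phospholipases tied to Anxa1, 5 of 6 were listed. In AP against saline mice 2 of these 5 were higher, beside 18.2% of all tested genes. Pla2g4a rose in AP against saline mice (1.11, 6.46 and 5.40 TPM, log2 fold change 2.10). Fpr1, named after its values were seen, also passed, but it reached the filter through the caerulein groups alone and its adjusted p went from 0.041 to 0.058 after median-of-ratios scaling. Fpr1 was listed at 0 in both saline mice, at 1.77 and 4.19 TPM in AP mice and at 0.288 and 1.83 TPM after polyI:C and caerulein. The most abundant of the list, Pla2g6, was not called (0.11). Between polyI:C-pretreated AP and AP mice 0 passed, where 0.845% of all tested genes did. Only 1 of the 5, Pla2g4a, was higher than saline in polyI:C-pretreated AP mice, not far from the 16.9% of all tested genes.

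Membrane repair genes, the machinery in which Anxa1, Anxa2, Anxa5 and Anxa6 take part, had 12 of 13 tested and 5 higher in AP against saline mice, beside 18.2% of all tested genes. Chmp4b, an ESCRT subunit that reseals membrane, had 97.0, 292 and 276 TPM (log2 fold change 1.59), and the calpain genes Capns1 (1.70) and Capn1 (2.18) rose with it. Capn2 and Myof, named after their values were seen, made up the rest, while Pdcd6ip, at 1.00, stayed at the 2-fold line and was not called. Against AP mice 0 of the list passed in polyI:C-pretreated AP mice, and against saline 5 did (16.9% of tested genes rose), with Pdcd6ip among them and Myof (0.97) not. Of 14 genes for phosphatidylserine exposure and engulfment, 4 rose in AP against saline mice, not far from the 18.2% of all tested genes, Mfge8 (20.5, 75.2 and 53.5 TPM, log2 fold change 1.89) and, named after their values were seen, Atp11a, Pros1 and Stab1. Gas6 (0.31), Tmem30a (0.31) and Ano6 (0.91) were not called. The scavenger receptor Stab1 alone passed between polyI:C-pretreated AP and AP mice, where it fell by 1.98, and 4 of the list were higher than saline in polyI:C-pretreated AP mice, with Ano6 among them and Stab1 (-0.31) not.

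The list medians in AP against saline mice were 1.03 for binding partners, 2.28 for plasminogen activation, 1.39 for formyl peptide receptors and phospholipases, 0.86 for membrane repair and 0.51 for phosphatidylserine exposure and engulfment, beside 1.68 for the annexins and 0.45 for all tested genes. Between the caerulein groups they were, in the same order, -0.29, -1.26, -0.48, -0.08 and -0.22, beside -0.23 for the annexins. After median-of-ratios scaling the counts higher in AP against saline mice were 4, 5, 1, 4 and 3, in that order, with 0 lower.

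Anxa9 and Anxa13, annexins outside the set of 10, were called in no comparison. Anxa13, an epithelial annexin of gut and kidney, measured 66.6 and 70.0 TPM in saline mice, 29.2 and 38.8 TPM in AP mice and 35.9 and 265 TPM after polyI:C and caerulein, so 1 mouse stood apart. Anxa9 ranged from 2.82 to 10.7 TPM.

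**Figure D4:**
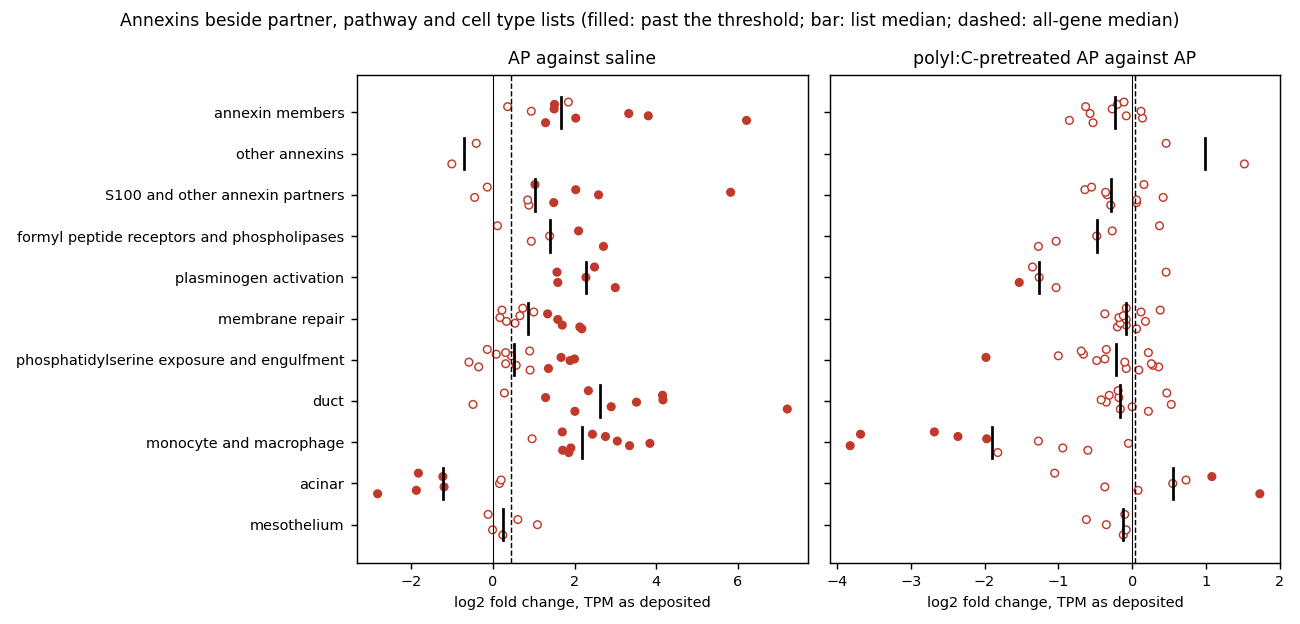
Log2 fold change (TPM as deposited) of each annexin, of the genes in partner and pathway lists and of the cell type markers, in AP against saline mice (left) and polyI:C-pretreated AP against AP mice (right); filled points passed both thresholds, the bar is the list median and the dashed line the all-gene median. The annexin median is 1.68 on the left and -0.23 on the right, and that of monocyte and macrophage markers is 2.17 and -1.89.

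Markers of the cell types in which annexins are made moved with the groups as well. The counts below stand beside 18.2% of all tested genes higher and 4.03% lower in AP against saline mice. Between polyI:C-pretreated AP and AP mice these shares were 0.44% higher and 0.404% lower. Summed duct markers, 10 of 10 listed, were 2250 and 2610 TPM in saline mice, 33800 and 36200 TPM in AP mice and 32000 and 25000 TPM after polyI:C and caerulein, with 8 higher in AP against saline mice and 0 called between the caerulein groups. Summed monocyte and macrophage markers, 10 of 10 listed, were 720 and 477, then 2760 and 3170, then 773 and 631 TPM. Of these, 9 were higher in AP against saline mice and 5 lower between polyI:C-pretreated AP and AP mice. Lyz2 was the largest part of the sum in saline and AP mice (376, 2000 and 161 TPM by group). Cd14 (14.8, 220 and 212 TPM) and Cd68 (5.86, 51.7 and 21.3 TPM) stayed above saline after polyI:C and caerulein. In that comparison with saline 3 markers of the list were higher and 2 lower, beside 16.9% and 2.97% of all tested genes. The 7 acinar markers summed to 124000 or more in saline mice, to 34500 and 49500 TPM in AP mice and to 24100 and 27600 TPM after polyI:C and caerulein. That sum is carried by Sycn, a zymogen granule protein (92800, 26600 and 12800 TPM), whereas the acinar transcription factor genes Bhlha15 (359, 50 and 166 TPM) and Rbpjl (216, 92.1 and 193 TPM) were higher after polyI:C pretreatment than in AP mice. By count, 5 of the 7 acinar markers fell in AP against saline mice, and 2 rose and 0 fell between polyI:C-pretreated AP and AP mice, with a median of 0.55. The part of any of these cell types in the annexin levels was not tested. Of the remaining marker lists, fibroblast and stellate markers had 4 of 8 higher in AP against saline mice. Endothelium, mesothelium, T cell, B cell and islet markers had 0 called in that comparison, but only 1 of the 6 T cell markers was tested.

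The genes whose pattern over the 6 mice was most like that of Anxa2, the member with the highest mean TPM, were Hmgn1, Tmem141, Siva1, Srsf3 and Sema3c, with Pearson r of log2(TPM + 0.5) from 0.9995 to 0.9999. Among 9413 genes that averaged 10 TPM or more, 426 had r above 0.99, and all 6 points share the gap between saline and caerulein-treated mice, so the ranking within these is a description. Hmgn1 had 41.1 TPM in saline, 204 TPM in AP and 200 TPM after polyI:C and caerulein, against 27.5, 394 and 371 TPM for Anxa2.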

How the data were processed

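Total RNA of 6 pancreases was sequenced on 1 HiSeq X10 lane. For alignment the authors used STAR on the mm10 genome after adapter and quality trimming by Trimmomatic, with gene counts from htseq-count and DESeq2 for their own gene lists; versions, and the step from counts to TPM, are not given in the sources used here. The labels name both a ribosomal-RNA-depletion kit and an mRNA kit. The authors deposited TPM values for 22556 Ensembl genes, of which 22490 were found in GENCODE M21. From these, log2(TPM + 0.5) was fitted with limma 3.58.1 in R 4.3.3, with 1 coefficient per group, a spread shared by all 6 mice and a prior variance that follows log2(mean TPM × exon length + 1). Adjustment was by Benjamini-Hochberg over the 16814 tested genes, and the fit was tested on simulated data. Reads were estimated from the spacing of low values, of which 31.9% to 37% fell within 0.1 of a whole read, against 15.4% to 16.6% with gene lengths shuffled. Groups and replicate numbers came from the labels, which name separate mice only by number, so p-values measure the spread between these samples. Deviations of same-numbered mice correlated at -0.00385 to 0.0351, so numbers were not treated as pairs. Beside the 10 annexins, genes were named from fixed lists by highest mean TPM (up to 4 a list), plus the 5 genes most like the most abundant annexin. The members and lists were chosen with earlier results of these data known. Figures used matplotlib 3.10.9.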

Additional observations from a re-analysis of the deposited data

How the results depend on the processing

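Of the annexin values recomputed under the alternatives, 422 kept their direction and side of the threshold, 14 lost a call, 4 gained one and 7 reversed. Anxa2, Anxa3, Anxa5, Anxa7 and Anxa10 kept their call in AP against saline mice under all 15 alternatives run, and Anxa2, Anxa3 and Anxa10 also in polyI:C-pretreated AP versus saline mice. Median-of-ratios scaling left 4 annexins called in polyI:C-pretreated AP versus saline mice (Anxa4 at 0.60, Anxa5 at 0.77 and Anxa7 at 0.86 fell under 2-fold) and reversed Anxa6 in AP against saline mice to -0.07. Voom left 5 (Anxa4 at 0.78 and Anxa5 at 0.95). Without 1 mouse, 5 to 7 annexins were called against saline in either comparison and 0 in polyI:C-pretreated AP versus AP mice, where the log2 fold changes ran from -0.26 to 0.09 for Anxa2, -0.01 to 0.25 for Anxa4, -0.68 to 0.46 for Anxa8 and -0.13 to 0.40 for Anxa11. Anxa8 has no value with a minimum mean of 5 TPM.

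Over all genes, 3730, 142 and 3338 were called in AP against saline, polyI:C-pretreated AP versus AP and polyI:C-pretreated AP versus saline mice. Without 1 mouse these counts ran from 2399 (without AP replicate 2) to 3648, from 0 to 53 and from 2508 to 3336. The 142 became 90 with no filter on low values, 28 with a prior following the mean log2 value, 41 with 1 prior variance and 324 with voom. With no minimum fold, 6794 and 6592 genes passed against saline in AP and polyI:C-pretreated AP mice. The cause of these shifts was not tested. A replicate block gave 3646, 124 and 3287 genes with 7, 0 and 7 annexins, so the pairing by number changed no annexin call.

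Low read counts limited Anxa8, Anxa10 and Anxa11 in saline mice, with at most 24 estimated reads each. The cell types that hold the transcripts, and protein levels, were not measured.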
